A study of Mus musculus with 4 samples.

Results

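Microtubules are built from alpha and beta tubulin, and the 35 genes described here encode those tubulins, gamma tubulin 1, the stathmins, the collapsin response mediator proteins and the main microtubule-associated proteins (MAPs). They were chosen by gene symbol from the 25239 gene IDs of the deposited tables: the Tuba and Tubb genes, Stmn1 to Stmn4, Crmp1, Dpysl2 to Dpysl5, Map1a, Map1b, Map2, Map4, Map6, Map7, Mapt, Dcx, Dclk1, Dclk2 and Tubg1. RNA was sequenced from mouse retina dissected at E13.5 (embryonic day), in 2 control libraries and 2 libraries labelled Isl1cKO. The label stands for a conditional knockout of the LIM-homeodomain factor gene Isl1. The comparison asks what differs in the retinal transcriptome between the libraries so labelled and the controls. The strain, the alleles that the controls carry, the Cre driver and the number of embryos per library are not given in the sources used here. Nothing says that the libraries of a group came from separate animals, so p-values measure only the spread between these libraries, which may be technical. Levels are in TPM (a value per transcript length that sums to 1000000 in each library), so they can be compared between genes.

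Alpha and beta tubulin form the dimers that polymerise into microtubules, and gamma tubulin sits in the complexes that start new ones. Stathmins bind free tubulin dimers and promote depolymerisation, while collapsin response mediator proteins bind tubulin and act in growth cone guidance. Structural MAPs and doublecortin family proteins bind along the microtubule and stabilise it, in axons, dendrites and migrating neurons. In the embryonic retina the first neurons to extend long axons are the ganglion cells, beside progenitors that use microtubules in the mitotic spindle.

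Isl1 itself reached 242 and 201 TPM in control replicates 1 and 2, compared with 321 and 223 TPM in replicates 1 and 2 labelled Isl1cKO. So the label Isl1cKO did not go with lower Isl1 (log2 fold change 0.28, SE 0.21, adjusted p-value 0.683 in limma), values are per gene rather than per exon, and each direction below rests on the labels. Aligned sequence, derived from the deposited coverage and FPKM, ranged from 12.6 to 14.3 gigabases per library. Markers of other tissues differed as well: the summed TPM of 10 lens markers was 187 and 235 in the controls against 10.6 and 7.45 in the libraries labelled Isl1cKO, and that of 10 red blood cell genes was 2904 and 4170 against 1419 and 205. Their part in the results below was not tested.

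Of the 35 genes, 31 passed the filter of at least 1 TPM in at least 2 libraries, as did 13984 of all genes. None of the 31 passed an adjusted p-value of 0.05 with limma, against 0.493% of all genes tested, so no single gene here is called higher or lower. At an unadjusted p-value under 0.05, 20 of the 31 were lower in the libraries labelled Isl1cKO and 0 were higher, where 8.92% of all genes tested were lower and 3.2% higher. The log2 fold change was below 0 in 30 of 31, against 63.8% of all genes, and its median was -0.44, against -0.05 over all genes tested. With median-ratio scaling it was below 0 in 27 of 31, with a median of -0.39 against 0.005 over all genes. With FPKM it was below 0 in 26 of 30, with a median of -0.37 against 0.002. In 24 of 31 both Isl1cKO values lay below both control values, against 30.0% of all genes tested, and in 1 of 31, Map7, both lay above, against 14.9%. The 24 include Tuba1c, Tubb5 and Tubg1, with small log2 fold changes of -0.09, -0.12 and -0.13. The Isl1cKO mean was lower by at least 1.5-fold for 6 of 31 (Mapt, Stmn3, Tuba4a, Stmn2, Crmp1 and Tubb2a), against 5.96% of all genes tested. The median log2 fold change of the 31 came to -0.33 when control replicate 1 was dropped and to -0.53 when control replicate 2 was. For the libraries labelled Isl1cKO, dropping replicate 1 gave -0.50 and dropping replicate 2 gave -0.30. Over all genes tested, the same fits gave medians between -0.08 and -0.02.

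**Figure D1:**
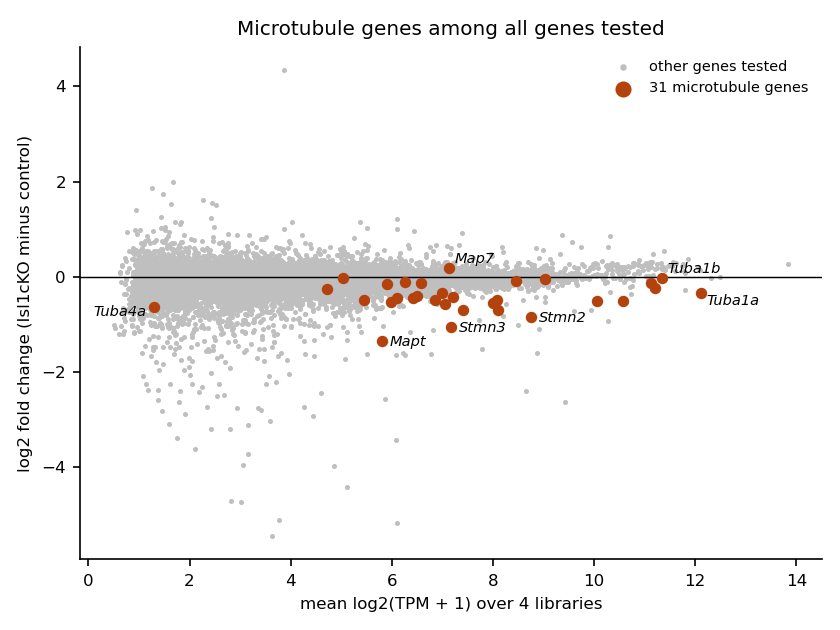
Log2 fold change (Isl1cKO minus control, on the log2(TPM + 1) scale) against the mean log2(TPM + 1) over the 4 libraries, with 1 grey point for each other gene tested and 1 red point for each of the 31 microtubule genes. The red points lie between -1.35 for Mapt and 0.18 for Map7, and 30 of 31 are below 0.

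The genes took a large share of the transcriptome. Summed, all 35 made up 2.08% and 1.93% of all TPM in the controls, compared with 1.68% and 1.58% in the libraries labelled Isl1cKO, so that both Isl1cKO sums lay below both control sums. Tuba1a alone ranked 3rd and 4th of all genes by TPM in the controls, and 6th and 11th in the libraries labelled Isl1cKO. By class, the Isl1cKO mean of the summed TPM was 85.9% of the control mean for alpha tubulins, 79.8% for beta tubulins and 91.5% for gamma tubulin 1. It was 77.3% for stathmins, 70.6% for collapsin response mediators, 75.9% for structural MAPs and 78.2% for the doublecortin family, the last being 94.5% without Isl1cKO replicate 2. In bulk tissue, fewer cells of a type and less RNA per cell cannot be told apart.

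**Figure D2:**
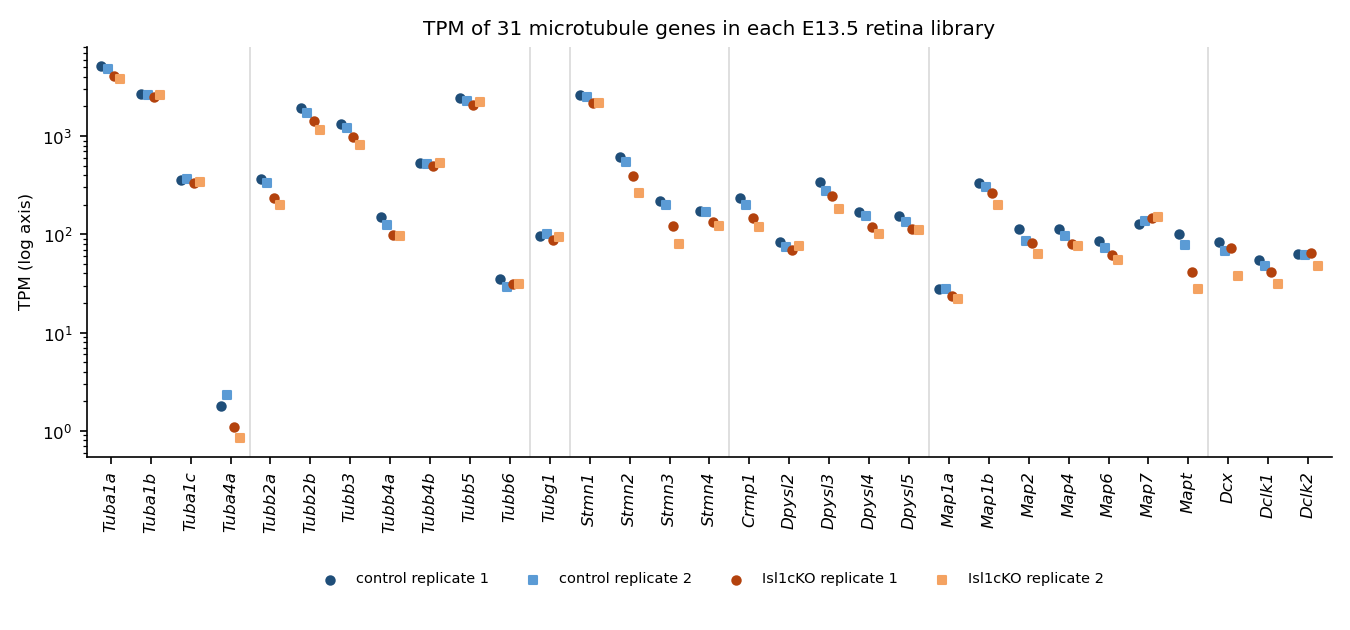
TPM on a log axis of each of the 31 genes that passed the filter, with 1 point per library, ordered by class and separated by vertical lines. Tuba1a is highest at 3782 to 5205 TPM and Tuba4a lowest at 0.845 to 2.33 TPM, and in Mapt the highest Isl1cKO point, 41.3, lies well below the lowest control point, 77.1.

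Alpha tubulin in these retinas came almost entirely from the genes Tuba1a, Tuba1b and Tuba1c on chromosome 15. Their coding sequences are so alike that reads can be hard to assign. Over the whole coding sequence in GENCODE M21 (GRCm38), Tuba1a was 98.3% identical to Tuba1b and 97.1% identical to Tuba1c, and the longest run of bases shared by 2 of the 3 transcripts was 468 (Tuba1b and Tuba1c). How reads within such runs were divided is not given in the sources used here.

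Tuba1a, the main alpha tubulin of young neurons, reached 5205 and 4760.3 TPM in control replicates 1 and 2, compared with 4092 and 3782 TPM in replicates 1 and 2 labelled Isl1cKO. The groups did not overlap, with a log2 fold change of -0.34 (SE 0.10) and a limma adjusted p-value of 0.306. Tuba1b, which is expressed in most dividing and non-dividing cells, stood at 2656 and 2619.6 TPM in control libraries, compared with 2520.2 and 2641 TPM in those labelled Isl1cKO. Its groups overlapped, and the unadjusted 95% interval of its log2 fold change ran from -0.24 to 0.18. Tuba1c stood at 353 and 365 TPM in control libraries, compared with 337 and 338 TPM in those labelled Isl1cKO, a log2 fold change of -0.09 with an interval from -0.30 to 0.12. Summed before the fit, the 3 genes differed by -0.22 (SE 0.08) on the log2 scale, with a limma adjusted p-value of 0.413. The ratio of Tuba1a to Tuba1b within a library, which does not depend on scaling between libraries, was 1.96 and 1.82 in the controls and 1.62 and 1.43 in Isl1cKO, so the groups did not overlap. The ratio does depend on how reads were divided between Tuba1a and Tuba1b, whose transcripts share a run of 281 bases.

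Tuba4a was low, at 1.78 and 2.33 TPM in control libraries, compared with 1.09 and 0.845 TPM in those labelled Isl1cKO (log2 fold change -0.63, SE 0.13, adjusted p-value 0.211 in limma). With a pseudocount of 0.1 in place of 1 its log2 fold change was -1.01. Its position in the tables overlaps Stk16 on the opposite strand, which stood at 52.3 to 55.1 TPM. The libraries were made strand-specific, but whether strand was used in counting is not stated. Tuba3a, Tuba3b and Tuba8 did not pass the filter: Tuba3b was listed at 0 in all 4 libraries, Tuba3a at 0.0578 TPM in control replicate 2 alone, and Tuba8 at 0.183 TPM in Isl1cKO replicate 1 alone.

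The beta tubulins differ more from each other than the alpha tubulins, most of all in the coding end, which encodes the acidic tail that protrudes from the microtubule surface. The last 60 coding bases of the 6 most abundant genes are given from GENCODE M21 (GRCm38) with capitals for bases that did not align to the same base of Tubb5, the gene with the highest level among them. They lie in the last coding exons at chr17:35834982-35835041 (Tubb5), chr2:25222308-25222367 (Tubb4b), chr13:34074468-34074527 (Tubb2a), chr13:34127471-34127530 (Tubb2b) and chr17:57080690-57080749 (Tubb4a), all on the minus strand, and at chr8:123421623-123421682 (Tubb3) on the plus strand.
Tubb5: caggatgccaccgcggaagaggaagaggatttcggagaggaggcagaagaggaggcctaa
Tubb4b: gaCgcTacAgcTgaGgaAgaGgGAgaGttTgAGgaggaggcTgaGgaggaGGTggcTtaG
Tubb2a: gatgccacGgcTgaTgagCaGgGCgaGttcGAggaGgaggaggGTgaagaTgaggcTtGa
Tubb2b: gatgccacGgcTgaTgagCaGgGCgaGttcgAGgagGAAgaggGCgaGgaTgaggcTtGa
Tubb3: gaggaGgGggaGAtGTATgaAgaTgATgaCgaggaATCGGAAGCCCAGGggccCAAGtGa
Tubb4a: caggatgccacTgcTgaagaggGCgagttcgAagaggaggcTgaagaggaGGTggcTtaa
Tubb3 had 32 such bases of 60, the most of the 5, and Tubb4a the fewest, at 10. Tubb2a and Tubb2b, neighbours on chromosome 13, were 96.5% identical over the coding sequence and shared a run of 551 bases, whereas in the other pairs the longest shared run was 53 bases.

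Tubb3, the beta tubulin used as a marker of neurons (chromosome 8, 123411553 to 123422015, plus strand), reached 1332 and 1209 TPM in control replicates 1 and 2, compared with 972 and 808 TPM in replicates 1 and 2 labelled Isl1cKO. Mean TPM was 1270.4 ± 86.6 and 889.9 ± 116 (SD, n = 2 each), with a log2 fold change of -0.52 (SE 0.13) and a limma adjusted p-value of 0.269. Tubb2b, abundant in newborn neurons, stood at 1938 and 1729 TPM in control libraries, compared with 1433 and 1140.6 TPM in those labelled Isl1cKO, also with a log2 fold change of -0.52 (SE 0.14, adjusted p-value 0.306 in limma). In both genes each Isl1cKO value lay below each control value, and Isl1cKO replicate 2 was the lowest library.

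Its neighbour Tubb2a (chromosome 13, 34074280 to 34078008, minus strand) gave 368 and 329 TPM in control libraries, compared with 232 and 201 TPM in those labelled Isl1cKO. With a log2 fold change of -0.69 (SE 0.12) it had the lowest adjusted p-value of the 31 genes, 0.155 in limma. With a mean-variance trend in limma it was 0.0458, the 1 call among these genes under that setting, where 0.787% of all genes were called. Over the other alternatives that used all 4 libraries its adjusted p-value reached 0.279. Tubb2a and Tubb2b summed had a log2 fold change of -0.54 (SE 0.14) and a limma adjusted p-value of 0.285, so the sum did not pass either. Tubb4a, found mainly in the nervous system, stood at 148 and 125 TPM against 98.0 and 95.7 TPM, a log2 fold change of -0.49 (SE 0.11, adjusted p-value 0.251 in limma) with no overlap of the groups.

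The broadly expressed beta tubulins showed small differences. Tubb5 stood at 2428 and 2271 TPM in control libraries, compared with 2091 and 2222 TPM in those labelled Isl1cKO, a log2 fold change of -0.12 with an unadjusted 95% interval from -0.36 to 0.11. Tubb4b stood at 536 and 522 TPM against 498 and 527 TPM, with an interval from -0.26 to 0.17, and its groups overlapped. Tubb6 was at 29.4 to 34.8 TPM over the 4 libraries, with an interval from -0.33 to 0.26. For Tuba1b, Tubb4b and Tubb6 the sign of the difference turned with median-ratio scaling and with FPKM, so no direction is given for them. After quantile normalization the log2 fold change was -0.22 for Tuba1b and -0.26 for Tubb5. Tubb1, the beta tubulin of platelets, did not pass the filter, at 0.250 and 0.0501 TPM in the controls and listed at 0 in both Isl1cKO libraries. Gamma tubulin 1 (Tubg1) stood at 96.7 and 101 TPM in control libraries, compared with 87.1 and 93.7 TPM in those labelled Isl1cKO, a log2 fold change of -0.13 with an interval from -0.36 to 0.10. The small values of Tuba1c, Tubb5, Tubg1 and Dpysl2 were lower in size by over 1.5 times with FPKM and with median-ratio scaling, between -0.08 and -0.03. Leaving out control replicate 1 or Isl1cKO replicate 1 gave -0.08 for Tubb5, and leaving out Isl1cKO replicate 1 gave -0.08 for Tubg1.

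The transcripts of single beta tubulin genes therefore did not make up the same shares of the summed TPM in the 2 groups of libraries. These shares were described and not tested. Tubb5 made up 35.8% and 36.5% of the summed beta tubulin TPM in the controls, and 39.0% and 44.2% in the libraries labelled Isl1cKO. The share of Tubb3 was 19.6% and 19.5% in the controls and 18.2% and 16.1% in Isl1cKO, and that of Tubb2b was 28.6% and 27.8% against 26.8% and 22.7%. Within a library, the ratio of Tubb3 to Tubb5 was 0.549 and 0.532 in the controls and 0.465 and 0.363 in Isl1cKO. In all of these the groups did not overlap, and Isl1cKO replicate 2 stood farthest from the controls. The pairs of genes set against each other were chosen after their values had been seen.

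**Figure D3:**
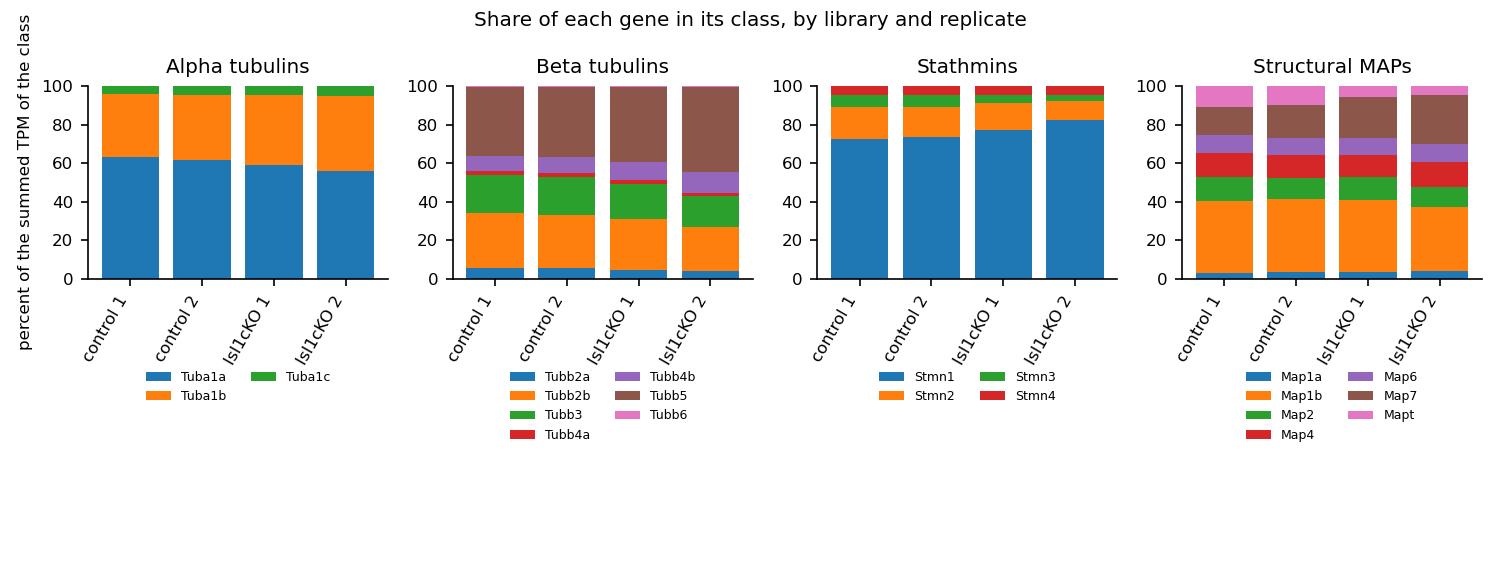
Share of each gene in the summed TPM of its class, in percent, for alpha tubulins, beta tubulins, stathmins and structural MAPs, with 1 stacked bar per library (genes under 0.1% of their class are not drawn). From control to Isl1cKO the bars of Tuba1b, Tubb5, Stmn1 and Map7 are taller and those of Tuba1a, Tubb3, Stmn2 and Mapt shorter.

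Among the stathmins, Stmn1, which is also abundant in dividing cells, was the highest at 2622 and 2511 TPM in control replicates 1 and 2, compared with 2192 and 2145 TPM in replicates 1 and 2 labelled Isl1cKO. Stmn2 (also called SCG10), a membrane-anchored stathmin of growth cones, stood at 612 and 549 TPM in control libraries, compared with 392 and 265 TPM in those labelled Isl1cKO. Stmn3 stood at 216 and 199 TPM against 122 and 80.2 TPM, and the groups of these 3 genes did not overlap. The log2 fold changes were -0.24 (SE 0.08) for Stmn1, -0.85 (SE 0.21) for Stmn2 and -1.06 (SE 0.22) for Stmn3, with adjusted p-values of 0.360, 0.275 and 0.211 in limma. After quantile normalization the value of Stmn1 was -0.43. Without Isl1cKO replicate 1 the value of Stmn3 was -1.36 with a limma adjusted p-value of 0.0473, where 0.984% of all genes were called, and it was -0.76 with 0.203 without Isl1cKO replicate 2. Stmn4 stood at 175 and 168 TPM against 133 and 123 TPM, a log2 fold change of -0.42 (SE 0.09, adjusted p-value 0.216 in limma).

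Relative to Stmn1 of the same library, Stmn3 stood at 0.0824 and 0.0794 in the controls and at 0.0557 and 0.0374 in Isl1cKO. The ratio of Stmn2 to Stmn1 was 0.234 and 0.218 in the controls and 0.179 and 0.123 in Isl1cKO. Stmn4 differed least from Stmn1, with ratios of 0.0666 and 0.0668 against 0.0608 and 0.0572. Stmn1 accordingly made up 72.3% and 73.3% of stathmin TPM in the controls and 77.2% and 82.1% in the libraries labelled Isl1cKO, and none of these ratios overlapped between the groups.

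The collapsin response mediators were lower in the libraries labelled Isl1cKO in 4 of 5 members without overlap of the groups, against 30.0% of all genes tested. Crmp1 reached 234 and 199.98 TPM in control replicates 1 and 2, compared with 148 and 120 TPM in replicates 1 and 2 labelled Isl1cKO (log2 fold change -0.70, SE 0.15, adjusted p-value 0.218 in limma). Dpysl3, the highest of the class, stood at 343 and 277 TPM against 245 and 181 TPM, a log2 fold change of -0.54 (SE 0.19, adjusted p-value 0.389 in limma) that was -0.33 without Isl1cKO replicate 2. Dpysl4 stood at 170.3 and 152 TPM against 118 and 100.2 TPM (log2 fold change -0.56, adjusted p-value 0.220 in limma). Dpysl5 was at 152 and 133 TPM against 114 and 112 TPM, with a smaller log2 fold change of -0.33. Dpysl2 (CRMP2), which binds tubulin dimers and promotes axon growth, was at 83.0 and 75.1 TPM against 70.1 and 76.2 TPM. The groups of Dpysl2 overlapped, and the unadjusted 95% interval of its log2 fold change ran from -0.37 to 0.15. That value of -0.11 went from -0.18 when control replicate 2 was left out to -0.04 when control replicate 1 was. The ratio of Crmp1 to Dpysl2 within a library was 2.82 and 2.66 in the controls and 2.11 and 1.57 in Isl1cKO.

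Mapt, which encodes the axonal protein tau (chromosome 11, 104231436 to 104332089, plus strand), showed the largest difference of the 31 genes tested. It reached 100.5 and 77.1 TPM in control replicates 1 and 2, compared with 41.3 and 27.8 TPM in replicates 1 and 2 labelled Isl1cKO, so that the Isl1cKO mean was 38.9% of the control mean. The log2 fold change was -1.35 (SE 0.24), with a limma adjusted p-value of 0.159. It ranged from -1.63 without Isl1cKO replicate 1 to -1.07 without Isl1cKO replicate 2. Among all genes ranked by TPM within a library, Mapt stood at rank 1990 and 2683 in the controls and at rank 4978 and 6373 in Isl1cKO.

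Map2, the dendritic counterpart of tau, differed less. It stood at 113 and 85.6 TPM in control libraries, compared with 82.1 and 63.2 TPM in those labelled Isl1cKO, a log2 fold change of -0.44 (SE 0.20, adjusted p-value 0.480 in limma) that came to -0.25 when control replicate 1 was left out, and to -0.26 when Isl1cKO replicate 2 was. The ratio of Mapt to Map2 within a library was 0.890 and 0.901 in the controls and 0.503 and 0.440 in Isl1cKO, a gap between the groups larger than the spread within either. Relative to Map1b it was 0.299 and 0.255 against 0.157 and 0.141. Of the 15 such ratios computed among these genes and Gap43, 14 did not overlap between the groups, the exception being Tuba1c to Tuba1b. The pairs were chosen after their values had been seen and several share a gene, so this count partly reflects the choice. No share for other pairs of genes was computed.

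Map1b, an early MAP of growing axons and the highest structural MAP, stood at 336 and 302 TPM in control libraries, compared with 263 and 197 TPM in those labelled Isl1cKO (log2 fold change -0.49, SE 0.17, adjusted p-value 0.377 in limma, and -0.28 without Isl1cKO replicate 2). Map6, which protects microtubules against cold, stood at 85.5 and 73.3 TPM against 61.8 and 54.3 TPM, and Map4, present in most cell types, at 113 and 95.7 TPM against 80.3 and 75.8 TPM. Their log2 fold changes were -0.44 and -0.41, and Map1a was at 22.2 to 27.7 TPM with -0.26. None of these 4 overlapped between the groups. Map1a overlaps Ppip5k1 on the opposite strand, which stood at 8.04 to 9.49 TPM.

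Map7, which recruits kinesin to microtubules, was the exception in direction. It reached 127 and 136 TPM in control replicates 1 and 2, compared with 147 and 151 TPM in replicates 1 and 2 labelled Isl1cKO. The groups did not overlap, and the log2 fold change was 0.18 (SE 0.08) with an unadjusted 95% interval from -0.05 to 0.40 and a limma adjusted p-value of 0.498. It was above 0 under each of the 13 alternatives, leave-one-out settings included. Its position overlaps the same-strand gene Rpl32l, at 3.12 to 4.51 TPM.

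**Figure D4:**
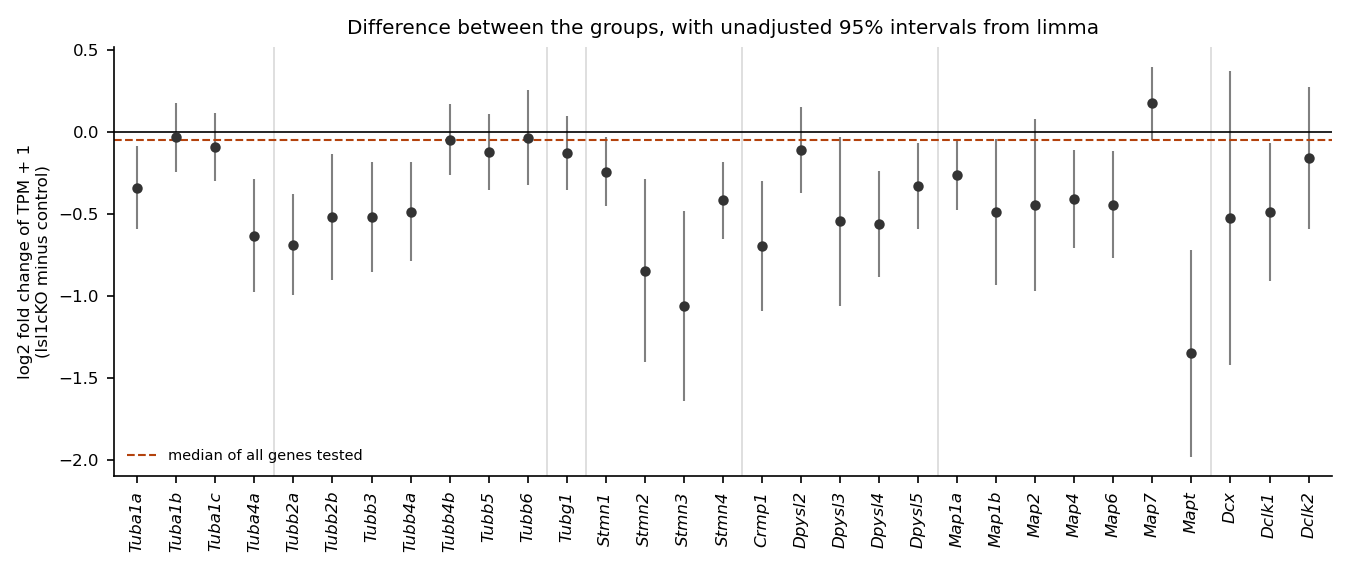
Log2 fold change (Isl1cKO minus control) of each of the 31 genes as points, with unadjusted 95% intervals from limma as bars, ordered by class, beside the median of all genes tested at -0.05 (dashed). The intervals of 20 genes lie below 0 and those of 11 include 0, and no gene passed after adjustment over all genes.

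The doublecortin family varied most between the 2 libraries labelled Isl1cKO. Dcx, a marker of migrating and newborn neurons, stood at 83.1 and 68.4 TPM in control libraries, compared with 72.7 and 37.4 TPM in Isl1cKO replicates 1 and 2. Its groups overlapped, and its log2 fold change of -0.52 (SE 0.34) came to -0.05 when Isl1cKO replicate 2 was left out, and to -0.99 when Isl1cKO replicate 1 was. Dclk1 stood at 54.2 and 47.8 TPM against 41.2 and 31.6 TPM (log2 fold change -0.49, SE 0.16, adjusted p-value 0.358 in limma, and -0.30 without Isl1cKO replicate 2). Dclk2 stood at 63.4 and 61.8 TPM against 65.1 and 48.2 TPM, and its value of -0.16 became 0.06 without Isl1cKO replicate 2, so no direction is given for it.

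Upstream sequences are given for 3 genes, picked after their values had been seen, to set a pair with large differences beside a gene with little. RefSeq windows (GRCm38.p6) were found for 24 of the 35 genes, and the 250 bases before the start were searched on both strands for TATAAA (the TATA box), then for the box named CCAAT, for GGGCGG (the GC box), for the E-boxes CAGCTG and also CATCTG, and for TAAT (the core bound by many homeodomains, Isl1 among them). The windows shown are those of Tubb2a (chr13:34078009-34078258, minus strand) and Stmn3 (chr2:181314501-181314750, minus strand), whose groups did not overlap, and of Tubb4b (chr2:25224703-25224952, minus strand), whose groups did. Each window ends at the base before the gene's first annotated base, and capitals mark the letters searched.
Tubb2a: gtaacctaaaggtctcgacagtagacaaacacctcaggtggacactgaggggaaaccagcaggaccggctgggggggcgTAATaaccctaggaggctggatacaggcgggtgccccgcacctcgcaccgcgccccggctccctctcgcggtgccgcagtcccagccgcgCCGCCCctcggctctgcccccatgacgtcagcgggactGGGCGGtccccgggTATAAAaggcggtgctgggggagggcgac
Stmn3: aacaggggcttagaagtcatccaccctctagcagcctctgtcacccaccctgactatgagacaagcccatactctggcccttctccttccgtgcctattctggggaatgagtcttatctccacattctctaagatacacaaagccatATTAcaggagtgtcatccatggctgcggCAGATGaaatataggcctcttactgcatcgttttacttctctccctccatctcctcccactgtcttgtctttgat
Tubb4b: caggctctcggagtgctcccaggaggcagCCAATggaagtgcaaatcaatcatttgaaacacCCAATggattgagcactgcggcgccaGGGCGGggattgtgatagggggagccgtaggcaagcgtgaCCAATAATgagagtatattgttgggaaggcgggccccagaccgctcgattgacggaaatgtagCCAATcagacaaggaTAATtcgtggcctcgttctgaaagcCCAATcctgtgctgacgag
In Tubb4b a CCAAT and a TAAT overlap. The letters TAAT were in the windows of 12 of 24 genes, against 54.9% of 32851 windows of all genes. CATCTG was in 3 (12.5%), against 14.4%, and CAGCTG in 3 as well, against 4271 of the 32851 windows. GGGCGG was in 15 of 24 (62.5%), against 32.7%, and CCAAT in 11 (45.8%), against 33.8%. TATAAA was in 3 of 24 (12.5%), against 12.4%. A gene was counted when any of its windows matched, whereas the background is the share of single windows. A gene with several windows had more chances to match, so these percentages are not like for like. A match in these letters is a description of the window and not a binding site.

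Beyond these genes, 86 others of the microtubule system were listed, covering nucleation, tubulin chaperones and modifying enzymes, severing enzymes, plus-end and minus-end proteins, other binding proteins and the dynein complex. Of 83 tested, 0 passed the adjusted threshold with limma, while 9 were lower and 2 higher at an unadjusted p-value under 0.05, against 8.92% and 3.2% of all genes tested. The median log2 fold change was -0.11, and the groups did not overlap with Isl1cKO lower in 40 of 83 genes, against 30.0% of all genes tested, and with Isl1cKO higher in 7, against 14.9%. The summed TPM of all 86 genes in Isl1cKO replicates 1 and 2 was 96.1% and 89.2% of the control mean. By group the medians ran from -0.22 in the 3 minus-end genes to -0.02 in the 8 severing genes.

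The listed genes that stood apart most were Nav2, Ttll7 and Dclk3 on the lower side and Fign, Nav1 and Katnal2 on the higher. Nav2, a plus-end protein, stood at 8.21 and 7.23 TPM in control libraries, compared with 3.15 and 2.13 TPM in those labelled Isl1cKO (log2 fold change -1.27, SE 0.17, adjusted p-value 0.0968 in limma). Ttll7, which adds glutamate chains to beta tubulin, stood at 9.65 and 9.56 TPM against 4.52 and 3.35 TPM (log2 fold change -1.11, SE 0.14, adjusted p-value 0.0848 in limma). Both passed the threshold with FPKM, where 1.02% of all genes did, and without Isl1cKO replicate 1, and Ttll7 did so after quantile normalization, where 0.551% did. Dclk3 was at 2.27 and 1.64 TPM against 0.475 and 0.918 TPM. Both Isl1cKO values are under the filter of 1 TPM, so Dclk3 passed it through the controls alone and its groups could not overlap. It is among the 40 of 83 genes counted above as lower without overlap. The severing enzyme gene Fign was at 19.1 and 19.5 TPM against 24.1 and 25.4 TPM, Nav1 at 20.8 and 23.1 TPM against 25.8 and 27.0 TPM, and Katnal2 at 23.0 and 24.0 TPM against 26.3 and 27.5 TPM. The 6 were taken from genes whose groups do not overlap, so their separation is part of the choice.

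Marker genes of retinal cell types were read beside the microtubule genes. Of 22 retinal ganglion cell markers tested (none of them among the 35 genes), 19 were lower in the libraries labelled Isl1cKO and 4 passed the threshold, Irx2, Irx3, Irx5 and Nell2, all lower, with a median log2 fold change of -1.27, where 63.8% of all genes tested were lower and 0.493% passed. Their summed TPM, over the 23 listed, was 3765 and 3254 in the controls and 1933 and 1405 in Isl1cKO, and Pou4f3 and Chrna6 were at 0 in a library. Of 17 genes listed here as pan-neuronal markers and tested, 17 were lower, with a median of -0.59 and values from -2.75 to -0.06. Only 1 passed, Thsd7b, and the others listed, Snap25, Syt1 and Rtn1 among them, did not. The shares of all genes are those just given. The 16 retinal progenitor markers had a median of -0.05, and their summed TPM was 8870 and 8409 in the controls and 7561 and 8318 in Isl1cKO. These lists were chosen with earlier results of these data known, so their counts beside all genes are a description and not independent support. The part of these lists in the microtubule results was not tested.

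Single markers differed by different amounts. Gap43, a growth cone protein counted among the ganglion cell markers, reached 877 and 753 TPM in control replicates 1 and 2, compared with 321 and 224 TPM in replicates 1 and 2 labelled Isl1cKO (log2 fold change -1.60, SE 0.20, adjusted p-value 0.0903 in limma). The ganglion cell factor Pou4f2 stood at 126 and 124 TPM against 135 and 119.7 TPM, with overlapping groups. The ratio of Tubb3 to Gap43 within a library was 1.52 and 1.61 in the controls and 3.03 and 3.61 in Isl1cKO. Tubb3 thus differed less between the groups than Gap43 in the same libraries.

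**Figure D5:**
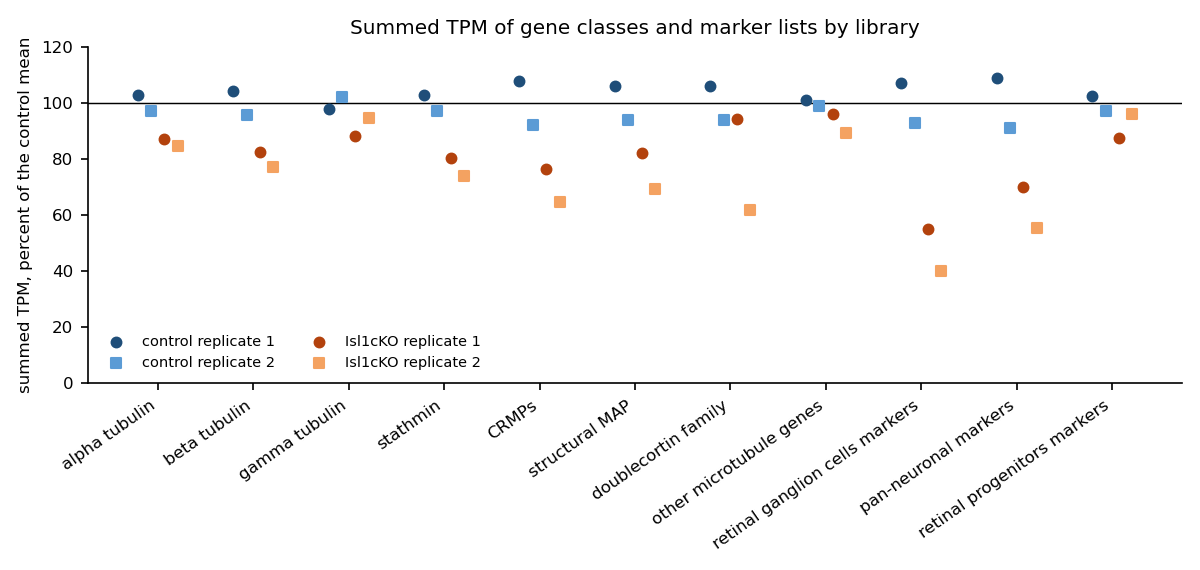
Summed TPM of each microtubule class, of the other microtubule genes and of 3 marker lists, with 1 point per library, as a percent of the control mean of the same sum. The ganglion cell markers stand at 55.1% and 40.0% in the libraries labelled Isl1cKO, the pan-neuronal markers at 70.2% and 55.4%, the stathmins at 80.5% and 74.1% and the alpha tubulins at 87.1% and 84.7%.

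The libraries of a group also differed from each other in 1 direction. Isl1cKO replicate 2 was the lowest of the 4 libraries for 23 of the 31 genes, against 46.2% of all genes tested, and it lay below Isl1cKO replicate 1 in 23, against 61.5%. Control replicate 2 lay below control replicate 1 in 27 of 31, against 57.2% of all genes tested. Of the 22 ganglion cell markers, 19 were lowest in Isl1cKO replicate 2. This library also had the least aligned sequence, 12.6 gigabases, and its part in these values was not tested beyond leaving it out, which gave a median log2 fold change of -0.30 over the 31 genes in place of -0.44.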

How the data were processed

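Per the labels' protocols, E13.5 retinas were frozen after dissection and poly(A)-selected, strand-specific libraries were made. Trimmomatic, FastQC, HISAT2, SAMtools, StringTie, DESeq2 and the build mm10 are named in the submitters' processing notes, without versions or roles. Per the file headers, the deposited tables give mean coverage per base, FPKM and TPM for each gene and library. The authors' coverage signal gave aligned sequence per library, the deposited FPKM gave an alternative fit, and everything else rests on the deposited TPM. Depth in reads is unknown, so no counting interval was computed.

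TPM was summed over repeated rows of a gene ID (0 rows among the 35 genes). For genes with at least 1 TPM in at least 2 libraries, limma 3.58.1 (R 4.3.3; lmFit, then eBayes) modelled log2(TPM + 1) on genotype alone. Benjamini-Hochberg adjustment ran over all genes tested, at a two-sided threshold of 0.05. Fold changes on this scale understate those of low genes. Intervals are unadjusted. The model was tested on simulated data. Coding sequences were aligned with Biopython 1.88.

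All 35 genes are named, then Isl1, the markers Pou4f2 and Gap43, and, of the other microtubule genes, those past the threshold or else the 3 per direction with the largest difference among genes whose groups do not overlap. A further marker gene covered by this rule and some sequences are not reported here. The genes, lists, model and alternatives were chosen with earlier results of these data known, and the ratios and printed sequences after these values had been seen. Marker lists for amacrine, horizontal, photoreceptor, pigment epithelium, mesenchyme, endothelium and microglia had medians of -0.53, 0.08, -0.45, -0.35, -0.14, -0.34 and 0.32. Alternatives were another pseudocount, filters, FPKM, 2 scalings, a mean-variance trend, a replicate block, summed sets of tubulin genes and leaving out each library. The summed sets were Tuba1a with Tuba1b and Tuba1c, Tuba3a with Tuba3b, Tubb2a with Tubb2b, and Tubb4b with Tubb5. The last 2 named, Tubb4b and Tubb5, were only 82.2% identical over the coding sequence, with a longest shared run of 26 bases.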

Additional observations from a re-analysis of the deposited data

How the results depend on the processing

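Differences are Isl1cKO minus control, by label. Why a value moved with a setting: the cause was not tested. All genes called numbered 69, against 44 at a pseudocount of 0.1, 15 with no filter beyond a value above 0 (more genes tested), 127 with FPKM and 110 with a mean-variance trend. Without 1 library, where the lone sample of a group is assumed to vary like the other group, they ranged from 3 (without control replicate 2) to 136 (without Isl1cKO replicate 1). Of the 31 genes described, 0 were called, and 1 was with a mean-variance trend (Tubb2a). Without 1 library the count ranged from 0 to 1 (Stmn3, without Isl1cKO replicate 1). The other microtubule genes called were 0, against 2 with FPKM, 1 after quantile normalization and 0 to 2 without 1 library.

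The replicate numbers gave 2 pairs, and nothing in the labels ties a number to a litter or batch. Deviations of both first replicates correlated at 0.126 over all genes, and the libraries were taken to share a number only. Among the 31 genes, replicate 2 lay below replicate 1 in 27 in the controls and in 23 in Isl1cKO. The shares over all genes tested were 57.2% and 61.5%, so the correlation over all genes need not hold for the 31. Adding the replicate block gave 265 calls among 13984 genes tested. They held 1 of the 31 (Mapt, adjusted p-value 0.0117 in limma) and 2 of the 83 other microtubule genes tested (Nav2 and Ttll7).

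The median log2 fold change of -0.44 ranged from -0.53 to -0.30 without 1 library. Of 31 genes, 27 kept their direction in every setting. The others turned: Tuba1b to 0.0184 with FPKM, 0.0245 with median-ratio scaling and, over the fits without 1 library, to between -0.0656 and 0.00170 (without Isl1cKO replicate 1), Tubb4b to 0.00388 with FPKM and 0.00993 with median-ratio scaling, Tubb6 to 0.0143, 0.0211 and 0.0316 with FPKM, median-ratio scaling and quantile normalization and to between -0.151 and 0.0840 without 1 library (highest without control replicate 1), and Dclk2 to between -0.371 and 0.0552 without 1 library (highest without Isl1cKO replicate 2). The alpha tubulin sum ratio of 0.859 was 0.893 with median-ratio scaling.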
